A study of Mus musculus with 12 samples.

Results

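The integrated stress response and the amino acid supply that it serves were followed through 39 genes in cultured mouse fibroblasts. The genes were taken as a list of names, chosen with earlier results of these data known. Their symbols were matched to the gene identifiers of a table of counts. All 39 were found among 26305 genes in the table. They comprised 8 regulators (Atf4, Atf5, Ddit3, Cebpg, Nupr1, Trib3, Ppp1r15a, Chac1), 7 enzymes of serine, glycine and one-carbon metabolism (Phgdh, Psat1, Psph, Shmt1, Shmt2, Mthfd2, Mthfd1l), and 4 other amino acid enzymes (Asns, Aldh18a1, Pycr1, Gpt2). The remaining members were 6 amino acid transporters (Slc7a1, Slc7a5, Slc3a2, Slc1a4, Slc1a5, Slc38a2), 12 cytosolic tRNA ligases (Aars, Cars, Eprs, Gars, Iars, Lars, Mars1, Nars, Sars, Tars, Wars, Yars), and the 2 further targets Vldlr and Stc2.

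In the integrated stress response, kinases that sense lack of amino acids, unfolded protein in the endoplasmic reticulum, double-stranded RNA or lack of haem phosphorylate the translation factor eIF2alpha. General protein synthesis then slows, while the messenger RNA of the transcription factor ATF4 is translated more, so that ATF4 is controlled largely at a step that RNA sequencing does not see. ATF4, often with partner C/EBP proteins, activates genes for amino acid synthesis, for amino acid import and for the tRNA ligases that load amino acids onto tRNAs, and it also activates its own dampers.

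RNA was sequenced from wild type mouse embryonic fibroblasts, primary cells isolated from male C57BL/6 embryos at day 13.5 and grown in medium with 10% serum under 3% oxygen. Cultures received 10 µM WM-2474, which the labels describe as an inactive control compound, for 240 h or 96 h, or its solvent DMSO for 240 h or 96 h. Each of the 4 groups had 3 biological replicates, 12 libraries in all, and the protocols used here do not say whether embryos were pooled. The same genotype, strain, medium and gas mixture applied to every group, and neither untreated cultures nor an active compound were among these samples.

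Library totals ran from 7313007 to 26019167 counts, so that 3 counts, taken as a detection floor for counting error, equalled 0.115 to 0.410 CPM, where CPM expresses counts on one library size shared by all libraries. All 39 genes passed the filter on low counts that kept 13499 genes, and together they held 0.667 to 0.708% of the counts of a library. The 10 fibroblast markers were all detected and summed to 38320 to 40036 CPM with WM-2474 at 240 h, 23962 to 29116 CPM with WM-2474 at 96 h, 35459 to 36346 CPM with DMSO at 240 h, and 24303 to 28890 CPM with DMSO at 96 h. The collagen genes Col1a1 and Col1a2 held most of these sums. Pdgfra went against the sums, averaging 200 CPM at 240 h and 296 CPM at 96 h with WM-2474. With DMSO Pdgfra averaged 201 CPM at 240 h and 287 CPM at 96 h. DMSO 240 h replicates 1 and 2 stood apart. Their 17 B-lineage markers summed to 54.5 and 50.5 CPM, against 26.8 to 38.6 CPM in the other 10 libraries. Ebf1 held most of the sum outside these 2 libraries, at 24.1 to 37.1 CPM in all 12, and the other 16 markers summed to 21.9 and 26.2 CPM in these 2, against 0.938 to 5.08 CPM in the other 10. Xist had 5.23 and 4.48 CPM there, against at most 0.924 CPM elsewhere, in cells labelled male. Of the B-lineage markers, Ighm stood at 5.80 and 7.74 CPM in this pair of libraries, against at most 1.73 CPM elsewhere. Dntt stood at 2.83 and 5.16 CPM, against at most 1.23 CPM, and Igll1 at 0.990 and 0.679 CPM, against 0. Not every marker was raised in both. Ms4a1 was at 0 in every library. Pax5 was at 0 in replicate 1 of the pair, and Rag2 and Igkc were at 0 in replicate 2. Results with DMSO at 240 h are therefore also given without both libraries, where the lone remaining library is assumed to vary like those of the other groups.

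ATF4 and its partners bind a composite sequence of a C/EBP and an ATF site, and the core TGATGNAA was searched on both strands of the promoters of the genes, from 250 bases before to 50 after the start (RefSeq, GRCm38.p6). A promoter was listed for 33 of the 39 genes, and 12 of them (36.4%) held the core, against 4.51% of 27025 genes with a listed promoter. The 12 genes were Aars, with a pair of matches, and Asns, Chac1, Gars, Iars, Nupr1, Pycr1, Slc1a4, Tars, Trib3, Vldlr and Yars, each with a single one. The promoters of 6 genes are shown, chosen from genes whose time changes are described per library, most of them for a small p in a time comparison. Asns lies on the minus strand, with its promoter at chr6:7693160-7693459 and its match from base -23 to base -16, counted from the start. Nupr1 (chr7:126625421-126625720, minus strand) had its match from base -110 to base -103, and Tars (chr15:11399609-11399908, minus strand) from base -15 to base -8. For Vldlr (chr19:27216770-27217069, plus strand) it ran from base -200 to base -193, and for Chac1 (chr2:119350992-119351291, plus strand) from base -193 to base -186. Trib3 (chr2:152344011-152344310, minus strand) carried it from base 15 to base 22, just inside the transcript. Sequences run 5′ to 3′ on the strand of the gene, and the capitals mark the match, which reads TTNCATCA where the core lies on the other strand. A match describes letters in this window and shows no binding.
Asns: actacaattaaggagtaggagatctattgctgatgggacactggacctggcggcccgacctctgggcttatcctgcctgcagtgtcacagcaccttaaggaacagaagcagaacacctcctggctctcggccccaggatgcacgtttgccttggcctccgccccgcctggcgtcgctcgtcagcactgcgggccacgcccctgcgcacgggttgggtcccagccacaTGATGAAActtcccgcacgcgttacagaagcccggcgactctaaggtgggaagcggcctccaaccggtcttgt
Nupr1: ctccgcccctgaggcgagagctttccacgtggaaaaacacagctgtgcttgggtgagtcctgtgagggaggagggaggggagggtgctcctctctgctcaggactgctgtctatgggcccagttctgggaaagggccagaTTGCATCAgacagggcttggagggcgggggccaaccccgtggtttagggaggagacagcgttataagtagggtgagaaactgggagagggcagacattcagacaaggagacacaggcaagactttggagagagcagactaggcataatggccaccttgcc
Tars: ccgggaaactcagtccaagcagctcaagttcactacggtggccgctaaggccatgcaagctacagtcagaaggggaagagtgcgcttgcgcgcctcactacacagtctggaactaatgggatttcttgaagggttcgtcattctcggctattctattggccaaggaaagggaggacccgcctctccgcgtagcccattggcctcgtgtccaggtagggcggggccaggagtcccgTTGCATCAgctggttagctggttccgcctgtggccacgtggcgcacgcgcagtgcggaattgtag
Vldlr: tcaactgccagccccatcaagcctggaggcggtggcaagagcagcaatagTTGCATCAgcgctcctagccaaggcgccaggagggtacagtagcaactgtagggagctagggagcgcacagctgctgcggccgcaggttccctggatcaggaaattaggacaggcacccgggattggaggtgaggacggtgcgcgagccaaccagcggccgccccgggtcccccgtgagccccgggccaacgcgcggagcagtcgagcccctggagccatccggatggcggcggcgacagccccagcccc
Chac1: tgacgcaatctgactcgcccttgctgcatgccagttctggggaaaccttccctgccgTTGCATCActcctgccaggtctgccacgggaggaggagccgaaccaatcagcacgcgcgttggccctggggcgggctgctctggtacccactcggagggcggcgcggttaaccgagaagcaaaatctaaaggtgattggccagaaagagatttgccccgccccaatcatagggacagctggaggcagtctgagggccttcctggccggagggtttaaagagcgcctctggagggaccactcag
Trib3: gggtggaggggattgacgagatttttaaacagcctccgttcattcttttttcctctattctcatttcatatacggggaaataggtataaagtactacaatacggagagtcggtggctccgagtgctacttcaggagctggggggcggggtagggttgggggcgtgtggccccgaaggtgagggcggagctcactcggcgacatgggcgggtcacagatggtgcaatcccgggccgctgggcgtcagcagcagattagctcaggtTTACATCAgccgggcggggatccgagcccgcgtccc

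The level of the genes, set per kilobase of exon so that genes can be compared (RPKM), covered a wide range. With DMSO at 96 h the highest mean levels were those of Atf5 at 198 RPKM, Atf4 at 150.4 RPKM, Gars at 145 RPKM, Nars at 142 RPKM and Psat1 at 137 RPKM. The lowest were Shmt1 at 5.10 RPKM, Pycr1 at 5.41 RPKM, Cebpg at 10.5 RPKM and Vldlr at 10.9 RPKM. Among the regulators, Nupr1 averaged 63.4, Ddit3 61.9, Trib3 32.0 and Chac1 23.1 RPKM in that group.

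**Figure D1:**
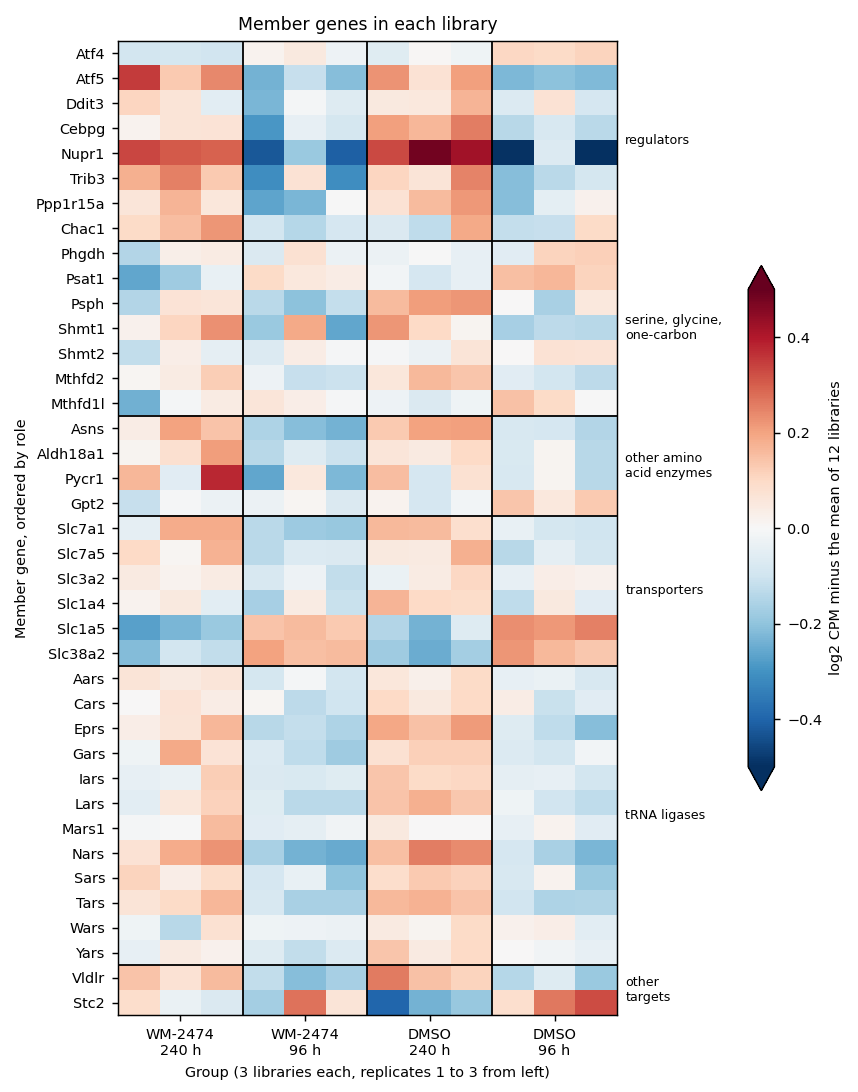
Heat map of the 39 genes, ordered by role, in the 12 libraries, grouped as WM-2474 at 240 h and 96 h and DMSO at 240 h and 96 h. Colour gives log2 CPM minus the mean of the 12 libraries, cut at 0.5 either way, and the main split is between 240 h and 96 h in genes such as Nupr1, Atf5 and Nars (higher at 240 h) and Slc1a5 and Slc38a2 (lower at 240 h).

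The comparison of 240 h with 96 h asked how the genes changed with longer culture under either treatment. With WM-2474, 20 of the 39 genes were higher and 3 lower at 240 h, where 15.9% of all tested genes were called higher and 14.8% lower. With DMSO, 21 were higher and 5 lower, where 17.5% of all tested genes were called higher and 17.3% lower. A call means an adjusted p under 0.05 in the quasi-likelihood F test of edgeR over all tested genes, n = 3 libraries per group, and ± beside a log2 fold change is its standard error. The median standard error of the 39 genes was 0.051 with either treatment, against 0.090 over all tested genes with WM-2474 and 0.089 with DMSO. Smaller changes can therefore pass among the 39 genes, and the shares of all tested genes are not a like baseline. The 39 genes were also chosen with earlier results of these data known. The median log2 fold change of the 39 genes was 0.15 with WM-2474, beside -0.0039 over all tested genes, and 0.16 with DMSO, beside -0.0064 over all tested genes. Of the genes called higher, 18 were shared, being 18 of the 20 with WM-2474 and 18 of the 21 with DMSO, and Psat1, Slc1a5 and Slc38a2 were called lower in both. Fitted changes below 0 were found for 10 of the 39 genes with WM-2474 (50.7% of all tested genes) and 9 with DMSO (51.1%). Without overlap between libraries, 23 genes were higher and 4 lower with WM-2474 (21.2% and 21.2% of all tested genes), and 24 higher and 7 lower with DMSO (22.9% and 22.8%). In these bulk samples, fewer cells of a type and less RNA per cell cannot be told apart.

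The size of these changes depended on the scaling of the libraries. The scaling factors were 0.943 to 0.967 at 240 h and 1.04 to 1.05 at 96 h, and with library totals in their place the median of all tested genes shifted to -0.14 with WM-2474 and -0.13 with DMSO. On that scale 7 of the 39 genes were higher and 9 lower with WM-2474 (8.13% and 32.5% of all tested genes), and 8 higher and 9 lower with DMSO (8.82% and 32.5%). A change of scaling moves all genes by nearly the same amount. Values taken relative to that shift therefore repeat the main fit and are no separate test of it. On this relative scale the median of the 39 genes was 0.15 above the median of all genes with WM-2474, and 29 of 39 lay above it. With DMSO it was 0.17 above, and 30 of 39 lay above it. Called higher on either scale in both treatments were Asns, Atf5, Nars, Nupr1 and Vldlr. Called lower on either scale in both treatments were Psat1, Slc1a5 and Slc38a2. Without DMSO 240 h replicates 1 and 2, DMSO gave 13 genes higher and 3 lower (10.6% and 9.79% of all tested genes), with a median of 0.17. The DMSO calls of Aars, Aldh18a1, Atf4, Gars, Iars, Psat1, Psph, Sars, Slc1a4 and Slc7a1 were lost in that fit.

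Markers of other cells also moved with time, and their part in these changes was not tested. The 5 epithelial markers, of which Krt19 held most, summed to 14.3 to 16.2 CPM with WM-2474 at 240 h, 24.2 to 30.9 CPM with WM-2474 at 96 h, 14.4 to 16.4 CPM with DMSO at 240 h and 27.5 to 29.2 CPM with DMSO at 96 h. The 5 endothelial markers summed to 1.45 to 3.24 CPM with WM-2474 at 240 h, 4.70 to 6.51 CPM with WM-2474 at 96 h, 2.65 to 3.96 CPM with DMSO at 240 h and 4.21 to 5.47 CPM with DMSO at 96 h. The 8 macrophage and myeloid markers overlapped between times in WM-2474 cultures, where they summed to 5.20 to 8.02 CPM at 240 h and 6.88 to 8.27 CPM at 96 h. They did not overlap in DMSO cultures, where the sums were 6.09 to 6.51 CPM at 240 h and 8.32 to 9.09 CPM at 96 h. Among these markers Lyz2 averaged 0.954 CPM at 240 h and 2.08 CPM at 96 h in WM-2474 cultures, and 0.366 CPM at 240 h and 2.53 CPM at 96 h in DMSO cultures. In DMSO cultures Lyz2 differed most between times, and the other markers of this list went both ways. Csf1r averaged 2.56 CPM at 240 h and 2.34 CPM at 96 h there, Ptprc 0.289 and 0.167 CPM, and Itgam 0.292 and 0.186 CPM. Lower at 240 h were Cd68 at 2.62 and 3.08 CPM, Fcer1g at 0.114 and 0.260 CPM, Adgre1 at 0.0401 and 0.0832 CPM, and Tyrobp at 0.0 and 0.0489 CPM. The means of Ptprc, Itgam, Fcer1g, Adgre1 and Tyrobp lay within or below the range of the detection floor, so their directions are uncertain. In DMSO 240 h replicates 1, 2 and 3, Ptprc had 0.283, 0.543 and 0.0401 CPM and Itgam 0.566, 0.271 and 0.0401 CPM. Their higher means at 240 h thus rest on replicates 1 and 2, the libraries that stood apart. The red cell markers reached at most 0.141 CPM.

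**Figure D2:**
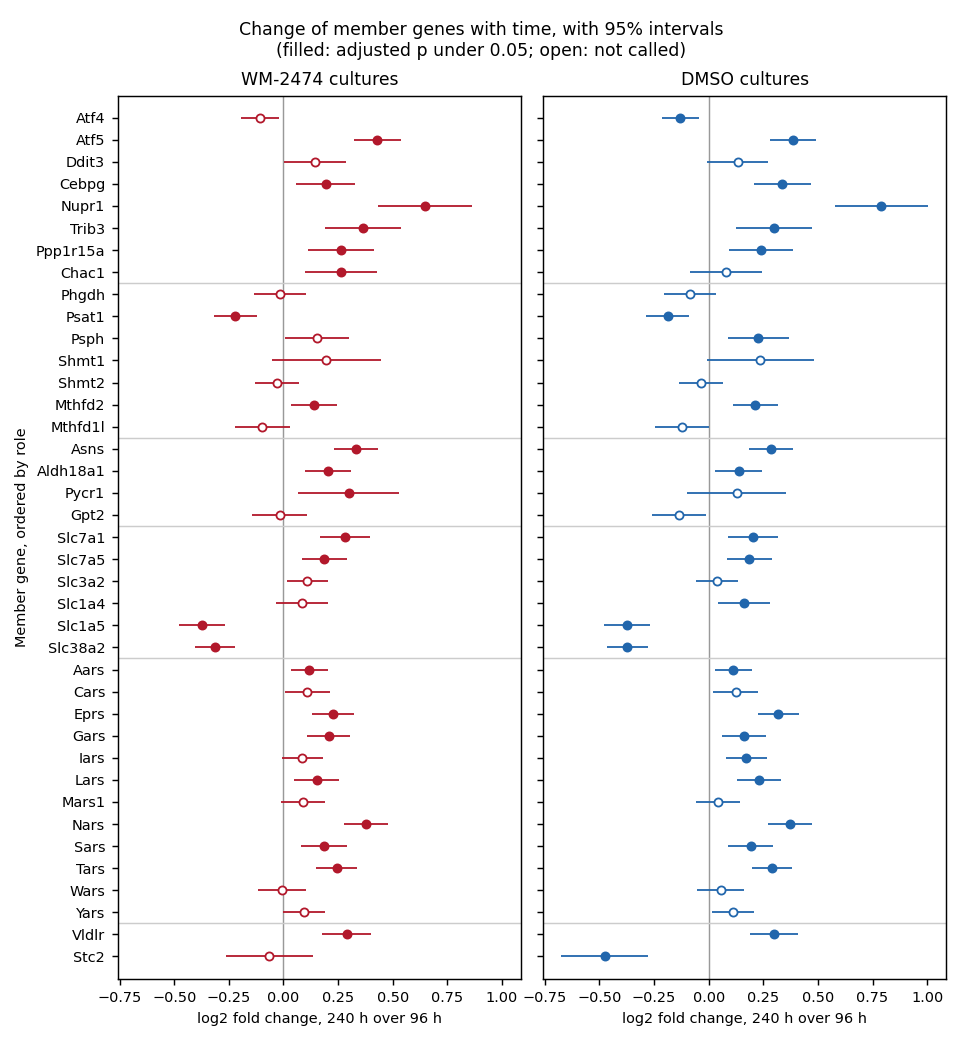
Log2 fold change of 240 h over 96 h for each of the 39 genes, ordered by role, with WM-2474 in the left panel and DMSO in the right, with bars for 95% intervals and filled points for an adjusted p under 0.05. Most regulators and tRNA ligases lie above 0 and Slc1a5, Slc38a2 and Psat1 below 0 in both panels, and Aars, filled above 0 here, lies just below 0 when libraries are scaled by their totals.

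Of the 8 regulators, 6 were called higher with time and 0 lower with WM-2474, and 5 higher and 1 lower with DMSO. Among all tested genes, 15.9% were called higher and 14.8% lower with WM-2474, and 17.5% and 17.3% with DMSO. Library totals gave 3 regulators higher and 1 lower in each treatment (8.13% and 32.5% of all tested genes with WM-2474, 8.82% and 32.5% with DMSO). Nupr1 (chr7:126623246-126625470), a small stress-induced chromatin protein, had 64.4, 63.3 and 62.6 CPM at 240 h, against 38.1, 44.9 and 38.6 CPM at 96 h, in WM-2474 cultures. In DMSO cultures Nupr1 had 64.2, 71.4 and 68.4 CPM at 240 h, against 36.3, 48.7 and 34.0 CPM at 96 h. All 240 h libraries lay above all 96 h libraries in both treatments, and this was the largest log2 fold change among the 39 genes, at 0.65 ± 0.10 with WM-2474 (adjusted p = 1.19e-04) and 0.79 ± 0.10 with DMSO (adjusted p = 1.28e-05). Atf5 (chr7:44812256-44816658), a transcription factor whose messenger RNA is translated under stress like that of ATF4, stood at 584, 502 and 542 CPM at 240 h, against 389.6, 424 and 396 CPM at 96 h, with WM-2474. With DMSO Atf5 stood at 536, 482 and 529.9 CPM at 240 h, against 393, 398 and 394 CPM at 96 h. Again the groups did not overlap, and the log2 fold change was 0.43 ± 0.052 with WM-2474 (adjusted p = 3.83e-07) and 0.39 ± 0.052 with DMSO (adjusted p = 1.97e-06). Trib3 (chr2:152337425-152344060), a pseudokinase that restrains ATF4, had 82.1, 86.3 and 79.4 CPM at 240 h, against 58.6, 76.3 and 58.6 CPM at 96 h, with WM-2474. Its DMSO values were 78.2, 75.9 and 86.2 CPM at 240 h, against 62.7, 66.1 and 68.4 CPM at 96 h. The 240 h libraries were the higher ones in both treatments, with WM-2474 96 h replicate 2 well above its group mates, and the change was 0.36 ± 0.083 with WM-2474 (adjusted p = 0.00233) and 0.30 ± 0.082 with DMSO (adjusted p = 0.00815). The DMSO call of Trib3 was lost without DMSO 240 h replicate 3 (adjusted p = 0.0744).

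Cebpg (chr7:35046422-35056566), a C/EBP partner of ATF4, had 54.2, 55.9 and 56.2 CPM at 240 h, against 43.7, 52.0 and 50.3 CPM at 96 h, in WM-2474 cultures. In DMSO cultures it had 61.7, 60.1 and 64.0 CPM at 240 h, against 48.6, 50.6 and 48.7 CPM at 96 h. The times did not overlap in either treatment, and the log2 fold change was 0.19 ± 0.065 with WM-2474 (adjusted p = 0.0255) and 0.34 ± 0.063 with DMSO (adjusted p = 1.65e-04). The WM-2474 call of Cebpg was lost in 3 of 12 fits that left out a library, namely 96 h replicate 1, 240 h replicate 2 and 240 h replicate 3 of that treatment, with an adjusted p of 0.0688 to 0.225. Chac1 (chr2:119351242-119354326), which degrades glutathione, had 39.9, 41.6 and 43.6 CPM at 240 h, against 35.1, 33.8 and 35.2 CPM at 96 h, with WM-2474, and these did not overlap. With DMSO Chac1 had 35.5, 34.2 and 42.6 CPM at 240 h, against 34.4, 34.5 and 39.9 CPM at 96 h, and these overlapped. The change of Chac1 was 0.26 ± 0.081 with WM-2474 (adjusted p = 0.0146) and 0.081 ± 0.080 with DMSO (adjusted p = 0.466), and the difference between these changes was 0.18 ± 0.11 (adjusted p = 0.977). The WM-2474 call of Chac1 was lost when 96 h replicate 2 (adjusted p = 0.0502) or 240 h replicate 3 (adjusted p = 0.0629) of that treatment was left out. Ppp1r15a, which directs a phosphatase to eIF2alpha and so closes the loop, changed by 0.26 ± 0.073 with WM-2474 (adjusted p = 0.00746) and 0.24 ± 0.072 with DMSO (adjusted p = 0.0112), the WM-2474 call being lost when 96 h replicate 1 or 240 h replicate 2 of that treatment was left out (adjusted p of 0.0577 and 0.0576) and the DMSO call when DMSO 96 h replicate 1 or 240 h replicate 3 was left out (adjusted p of 0.0789 and 0.0959).

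Atf4 and Ddit3 were not called higher in either treatment. Atf4 (chr15:80255184-80257545), the central transcription factor, had 226, 227 and 226 CPM at 240 h, against 244, 249.7 and 237 CPM at 96 h, with WM-2474. In DMSO cultures Atf4 had 231, 242 and 238 CPM at 240 h, against 259, 258 and 261 CPM at 96 h. Every 240 h library lay below every 96 h library of its treatment, by -0.11 ± 0.042 with WM-2474 (adjusted p = 0.0575) and -0.13 ± 0.042 with DMSO (adjusted p = 0.0177). It was thus called lower with DMSO and missed the threshold with WM-2474, and the difference between the changes was 0.024 ± 0.059 (adjusted p = 0.990). The DMSO call of Atf4 was lost without DMSO 240 h replicate 1 (adjusted p = 0.0793), without DMSO 240 h replicate 3 (adjusted p = 0.0548) and without DMSO 240 h replicates 1 and 2 together (-0.12, adjusted p = 0.172). With WM-2474 Atf4 passed without WM-2474 96 h replicate 3 (adjusted p = 0.0485) and without DMSO 96 h replicate 1 (adjusted p = 0.0449), as it did under library totals and with a filter of over 1 CPM in 3 libraries. Ddit3 (chr10:127290793-127296291), which encodes the death-linked factor CHOP, had 59.2, 57.4 and 52.9 CPM at 240 h, against 46.8, 54.5 and 52.5 CPM at 96 h, with WM-2474. With DMSO the Ddit3 values were 56.7, 57.0 and 61.8 CPM at 240 h, against 52.4, 57.7 and 51.7 CPM at 96 h. The times overlapped in both treatments, and the log2 fold change of Ddit3, 0.15 ± 0.069 with WM-2474 (adjusted p = 0.111) and 0.13 ± 0.067 with DMSO (adjusted p = 0.131), did not pass.

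**Figure D3:**
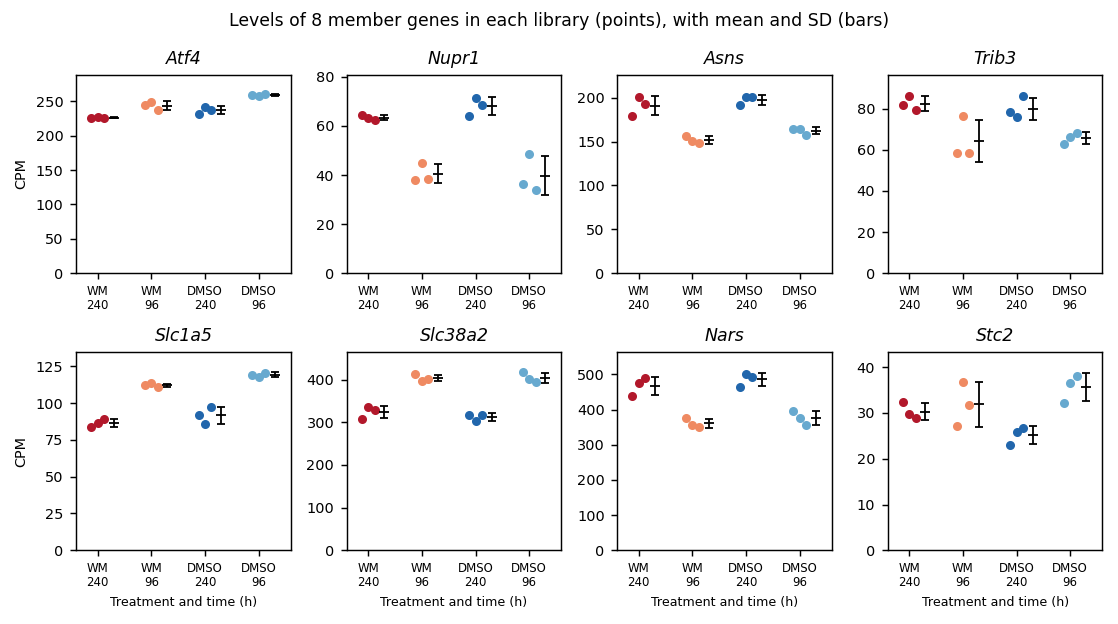
Level in CPM of Atf4, Nupr1, Asns, Trib3, Slc1a5, Slc38a2, Nars and Stc2 in each library (points), with the mean and SD of 3 libraries beside them, for WM-2474 at 240 h and 96 h and DMSO at 240 h and 96 h, with axes starting at 0. Nupr1, Asns, Trib3 and Nars are higher at 240 h in both treatments, Slc1a5 and Slc38a2 are lower, and Stc2 is lower at 240 h in the DMSO libraries, where it ranges from 23.1 to 26.7 CPM.

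Among the 7 enzymes that make serine and glycine and pass on their one-carbon units, 1 was higher and 1 lower with WM-2474. With DMSO 2 were higher and 1 lower. The shares of all tested genes were 15.9% and 14.8% with WM-2474, and 17.5% and 17.3% with DMSO. Library totals gave 0 of the 7 enzymes higher and 4 lower in each treatment (8.13% and 32.5% of all tested genes with WM-2474, 8.82% and 32.5% with DMSO). Psat1 (chr19:15905123-15925059), the aminotransferase of serine synthesis, had 259, 274 and 301 CPM at 240 h, against 331, 321 and 318 CPM at 96 h, in WM-2474 cultures. With DMSO Psat1 had 307, 292 and 301 CPM at 240 h, against 343, 347 and 334 CPM at 96 h. All 240 h values were the lower ones, by -0.22 ± 0.048 with WM-2474 (adjusted p = 9.34e-04) and -0.19 ± 0.048 with DMSO (adjusted p = 0.00352), and without DMSO 240 h replicates 1 and 2 the DMSO value was -0.18 and not called (adjusted p = 0.0815). Psph (chr5:129765558-129787443), the phosphatase that completes serine synthesis, had 40.1, 46.5 and 46.3 CPM at 240 h, against 40.4, 38.5 and 40.9 CPM at 96 h, with WM-2474, and these overlapped. With DMSO it had 49.5, 51.3 and 51.7 CPM at 240 h, against 44.5, 39.7 and 46.1 CPM at 96 h, without overlap. Its change was 0.15 ± 0.071 with WM-2474 (adjusted p = 0.106) and 0.23 ± 0.069 with DMSO (adjusted p = 0.0114). The DMSO call of Psph was lost without DMSO 96 h replicate 2 (adjusted p = 0.0776), without DMSO 240 h replicate 3 (adjusted p = 0.0631) and without DMSO 240 h replicates 1 and 2 together (adjusted p = 0.0602), and it passed with WM-2474 without WM-2474 240 h replicate 1 (adjusted p = 0.0258). Exons of Psph are overlapped for 10.4% of their length by Cct6a on the opposite strand, so that its counts are uncertain where strand was not used in counting.

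Mthfd2 (chr6:83305704-83326011), a mitochondrial folate enzyme, had 113, 115 and 122 CPM at 240 h, against 109.9, 103 and 104 CPM at 96 h, with WM-2474. In DMSO it had 116, 125 and 123 CPM at 240 h, against 107, 105 and 102 CPM at 96 h. The times did not overlap, and the log2 fold change was 0.14 ± 0.051 with WM-2474 (adjusted p = 0.0411) and 0.21 ± 0.051 with DMSO (adjusted p = 0.00173). Its WM-2474 call was lost when any 1 of 5 libraries was left out (WM-2474 96 h replicates 2 and 3, WM-2474 240 h replicates 2 and 3, DMSO 96 h replicate 2), with an adjusted p of 0.0518 to 0.168. The other 4 were not called. Phgdh, the first enzyme of serine synthesis, changed by -0.014 ± 0.058 with WM-2474 and -0.084 ± 0.057 with DMSO, and 71.5% of its 31-base words occur in other genes, chiefly the copy Gm7901, so that its count is uncertain. Shmt2, which splits serine in mitochondria, gave -0.029 ± 0.049 with WM-2474 and -0.034 ± 0.048 with DMSO. Its cytosolic counterpart Shmt1 gave 0.20 ± 0.12 with WM-2474 and 0.24 ± 0.12 with DMSO. Mthfd1l, which releases formate in mitochondria, gave -0.096 ± 0.061 with WM-2474 and -0.12 ± 0.060 with DMSO.

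Of the 4 other enzymes, 3 were called higher with WM-2474 and 2 with DMSO, and 0 were called lower in either. The shares of all tested genes called higher and lower were 15.9% and 14.8% with WM-2474, and 17.5% and 17.3% with DMSO. Library totals gave 1 of the 4 enzymes higher and 1 lower in each treatment (8.13% and 32.5% of all tested genes with WM-2474, 8.82% and 32.5% with DMSO). Asns (chr6:7675165-7693209), asparagine synthetase and a much studied ATF4 target, had 179, 200.5 and 193 CPM at 240 h, against 157, 150.4 and 148 CPM at 96 h, in WM-2474 cultures. With DMSO Asns had 191, 200.5 and 201 CPM at 240 h, against 165, 165 and 158 CPM at 96 h. The times were separate in both treatments, and the change was 0.33 ± 0.049 with WM-2474 (adjusted p = 7.09e-06) and 0.29 ± 0.048 with DMSO (adjusted p = 4.58e-05). Aldh18a1 (chr19:40550257-40588463), which starts proline synthesis from glutamate, had 194, 204 and 223 CPM at 240 h, against 175, 185 and 179 CPM at 96 h, with WM-2474. Its DMSO values were 201, 199 and 207 CPM at 240 h, against 183, 194 and 175 CPM at 96 h. The times did not overlap, and the log2 fold change was 0.20 ± 0.051 with WM-2474 (adjusted p = 0.00336) and 0.14 ± 0.051 with DMSO (adjusted p = 0.0400). The DMSO call of Aldh18a1 was lost when DMSO 96 h replicate 1 or 3, any DMSO 240 h library or WM-2474 96 h replicate 3 was left out, with an adjusted p of 0.0513 to 0.186. Gpt2 (chr8:85492576-85528902), a mitochondrial alanine aminotransferase, had 46.4, 50.01 and 49.2 CPM at 240 h, against 49.2, 50.5 and 47.8 CPM at 96 h, with WM-2474, and overlapped. With DMSO Gpt2 had 50.8, 47.4 and 49.8 CPM at 240 h, against 55.4, 52.1 and 55.1 CPM at 96 h, the lower values being at 240 h. Neither change passed, at -0.017 ± 0.061 with WM-2474 (adjusted p = 0.866) and -0.14 ± 0.059 with DMSO (adjusted p = 0.0792). Pycr1, the last step of proline synthesis, was called with WM-2474 at 0.30 ± 0.11 (adjusted p = 0.0454), although its libraries overlapped and leaving out any 1 of 8 libraries ended the call, the exceptions being WM-2474 96 h replicate 2, WM-2474 240 h replicate 2, DMSO 96 h replicate 1 and DMSO 240 h replicate 2 (adjusted p of 0.0507 to 0.261). With DMSO Pycr1 gave 0.13 ± 0.11.

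The 6 transporters split in direction, 2 being higher and 2 lower with WM-2474 (15.9% and 14.8% of all tested genes). With DMSO 3 were higher and 2 lower (17.5% and 17.3%). Library totals gave 1 higher and 2 lower with WM-2474 (8.13% and 32.5% of all tested genes) and 0 higher and 2 lower with DMSO (8.82% and 32.5%). Slc1a5 (chr7:16781334-16798274), the neutral amino acid exchanger known for glutamine uptake, had 84.0, 86.6 and 89.2 CPM at 240 h, against 112, 113 and 111 CPM at 96 h, in WM-2474 cultures. With DMSO Slc1a5 had 91.5, 86.1 and 97.1 CPM at 240 h, against 119, 118 and 121 CPM at 96 h. Its 240 h values were clearly apart from and below those at 96 h, by -0.37 ± 0.052 with WM-2474 (adjusted p = 3.28e-06) and -0.37 ± 0.051 with DMSO (adjusted p = 2.69e-06). Slc38a2 (chr15:96687392-96699728), a sodium-coupled importer of small neutral amino acids, had 308, 336 and 329 CPM at 240 h, against 412, 398 and 400.3 CPM at 96 h, with WM-2474. Under DMSO it had 316, 302 and 318 CPM at 240 h, against 417, 401 and 394 CPM at 96 h. Here too the groups did not overlap, and the change was -0.31 ± 0.044 with WM-2474 (adjusted p = 4.19e-06) and -0.37 ± 0.045 with DMSO (adjusted p = 3.07e-07). The calls of Slc1a5 and Slc38a2 held in every alternative run. Slc7a1, an importer of arginine and lysine, was higher by 0.28 ± 0.056 with WM-2474 (adjusted p = 3.13e-04) and 0.20 ± 0.055 with DMSO (adjusted p = 0.00543), and the DMSO call was lost without DMSO 240 h replicates 1 and 2 together (0.16, adjusted p = 0.160). Slc7a5, the large neutral amino acid exchanger, was higher by 0.19 ± 0.049 with WM-2474 (adjusted p = 0.00475) and 0.19 ± 0.049 with DMSO (adjusted p = 0.00436), the DMSO call being lost without DMSO 240 h replicate 3 (adjusted p = 0.0637). Slc3a2, the heavy chain that pairs with Slc7a5, was not called, at 0.11 ± 0.046 with WM-2474 and 0.038 ± 0.046 with DMSO. Slc1a4, a carrier of alanine and serine, was called with DMSO at 0.16 ± 0.058 (adjusted p = 0.0302), a call lost without DMSO 96 h replicate 1 or 3 or any DMSO 240 h library (adjusted p of 0.0520 to 0.143), and gave 0.084 ± 0.058 with WM-2474.

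Across all tested genes, 15.9% were called higher and 14.8% lower with WM-2474, and 17.5% and 17.3% with DMSO. Under library totals these shares were 8.13% and 32.5% with WM-2474, and 8.82% and 32.5% with DMSO. The tRNA ligases were called in one direction, with 7 of 12 higher and 0 lower with WM-2474, and 8 of 12 higher and 0 lower with DMSO. Their median log2 fold changes were 0.13 with WM-2474 and 0.17 with DMSO. Under library totals 1 was higher and 1 lower with WM-2474, and 3 were higher and 0 lower with DMSO, while leaving out DMSO 240 h replicates 1 and 2 gave 4 higher and 0 lower with DMSO. Nars, which loads asparagine, had 439.9, 476 and 489 CPM at 240 h, against 375, 355 and 352 CPM at 96 h, in WM-2474 cultures. In DMSO cultures Nars had 464, 501 and 494 CPM at 240 h, against 395, 375 and 357 CPM at 96 h. The 240 h libraries all lay above the 96 h range of their treatment, and the change was 0.38 ± 0.049 with WM-2474 (adjusted p = 1.27e-06) and 0.37 ± 0.049 with DMSO (adjusted p = 1.38e-06). Eprs (chr1:185361417-185428360), a fused ligase for glutamate and proline, had 388, 397 and 426 CPM at 240 h, against 345, 349 and 341 CPM at 96 h, with WM-2474. With DMSO Eprs had 434, 420.5 and 439.6 CPM at 240 h, against 363, 348 and 327 CPM at 96 h. The times were separate, with a log2 fold change of 0.23 ± 0.046 with WM-2474 (adjusted p = 4.34e-04) and 0.32 ± 0.046 with DMSO (adjusted p = 5.56e-06). Tars (chr15:11383663-11399658), which loads threonine, had 200.1, 205 and 215 CPM at 240 h, against 181, 171 and 171 CPM at 96 h, with WM-2474. Its DMSO values were 214, 216 and 211 CPM at 240 h, against 179, 172 and 172 CPM at 96 h. These did not overlap either, and the change was 0.24 ± 0.045 with WM-2474 (adjusted p = 1.52e-04) and 0.29 ± 0.045 with DMSO (adjusted p = 1.54e-05). Nars kept its call in every alternative run in both treatments, and Eprs and Tars did so with DMSO.

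Of the other ligases, Gars (glycine) was higher by 0.21 ± 0.049 with WM-2474 (adjusted p = 0.00186) and 0.16 ± 0.049 with DMSO (adjusted p = 0.0113), Lars (leucine) by 0.15 ± 0.049 with WM-2474 (adjusted p = 0.0203) and 0.23 ± 0.049 with DMSO (adjusted p = 5.81e-04) and Sars (serine) by 0.18 ± 0.051 with WM-2474 (adjusted p = 0.00640) and 0.19 ± 0.051 with DMSO (adjusted p = 0.00429). The WM-2474 call of Lars was lost without WM-2474 96 h replicate 2 or 3 or WM-2474 240 h replicate 2 or 3 (adjusted p of 0.0680 to 0.112), and Sars lost its calls without WM-2474 96 h replicate 3 (adjusted p = 0.0736, with WM-2474) and without DMSO 96 h replicate 3 (adjusted p = 0.0502, with DMSO). Aars (alanine) was called higher by 0.12 ± 0.042 with WM-2474 (adjusted p = 0.0320) and 0.11 ± 0.041 with DMSO (adjusted p = 0.0367), but lay just below 0 under library totals, at -0.016 with WM-2474 and -0.0093 with DMSO, and 20.3% of its 31-base words are shared with Exosc6, whose exons overlap it. Leaving out single libraries ended the call of Aars 5 times of 12 with WM-2474 (WM-2474 96 h replicates 1 and 3 and each WM-2474 240 h library) and 6 times with DMSO (each DMSO 96 h library, DMSO 240 h replicates 1 and 3, WM-2474 96 h replicate 3), with adjusted p between 0.0503 and 0.168. Iars (isoleucine) was called with DMSO at 0.17 ± 0.046 (adjusted p = 0.00468) and gave 0.087 ± 0.046 with WM-2474, and 17.2% of its words are shared, mostly with Gm4849. The remaining 4 were not called. With WM-2474 the log2 fold change was 0.11 ± 0.050 for Cars (cysteine), 0.094 ± 0.047 for Yars (tyrosine), 0.090 ± 0.049 for Mars1 (methionine) and -0.0047 ± 0.053 for Wars (tryptophan). With DMSO it was 0.12 ± 0.050 for Cars, 0.11 ± 0.046 for Yars, 0.043 ± 0.049 for Mars1 and 0.055 ± 0.053 for Wars. The split into listed and other ligases was made with earlier results of these data known, so that their contrast is descriptive only. For the classes that follow, the shares of all tested genes were 15.9% higher and 14.8% lower with WM-2474, and 17.5% and 17.3% with DMSO. Under library totals they were 8.13% and 32.5% with WM-2474, and 8.82% and 32.5% with DMSO. The 8 cytosolic ligases outside the list had 0 calls with WM-2474 in edgeR, with 1 at an unadjusted p under 0.05, and 1 higher and 1 lower with DMSO. Their medians were 0.012 with WM-2474 and 0.0099 with DMSO. Those calls with DMSO were Rars (arginine), higher by 0.18 ± 0.063 (adjusted p = 0.0333), and Vars (valine), lower by -0.17 ± 0.050 (adjusted p = 0.0110). Of 17 mitochondrial ligases, which serve the separate protein synthesis of that organelle, 1 was higher and 1 lower with WM-2474 and 0 were higher and 2 lower with DMSO. Their medians were -0.035 with WM-2474 and -0.037 with DMSO. The median standard error of the mitochondrial ligases was 0.11 in each treatment, against 0.049 for the 12 listed ligases. Calls thus needed larger changes among the mitochondrial ligases. Under library totals the 8 other cytosolic ligases had 0 higher and 4 lower in each treatment, and the mitochondrial ligases 1 higher and 7 lower with WM-2474 and 0 higher and 5 lower with DMSO. Without DMSO 240 h replicates 1 and 2, the DMSO calls in both of these classes were lost, and so was the lower call of a mitochondrial ligase with WM-2474. Of 3 scaffold proteins that hold several ligases in a complex, 1 was higher with WM-2474 and 2 with DMSO, Eef1e1 by 0.36 ± 0.084 with WM-2474 (adjusted p = 0.00175) and 0.31 ± 0.083 with DMSO (adjusted p = 0.00432) and Aimp1 with DMSO by 0.18 ± 0.068 (adjusted p = 0.0387). Library totals left 1 scaffold protein higher with WM-2474 and 0 with DMSO, and leaving out DMSO 240 h replicates 1 and 2 left 1 higher with each treatment.

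**Figure D4:**
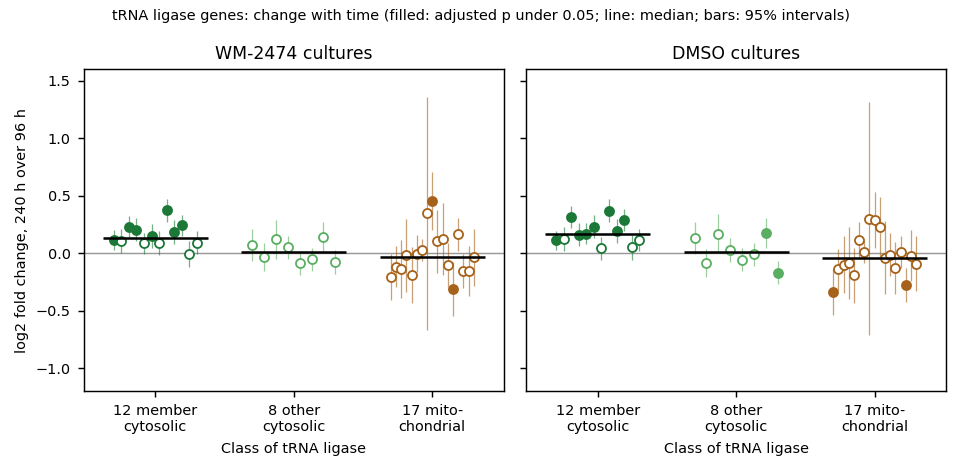
Log2 fold change of 240 h over 96 h with WM-2474 (left) and DMSO (right) for 12 cytosolic tRNA ligases of the list, the 8 other cytosolic ligases and 17 mitochondrial ligases, with 95% intervals as bars, class medians as lines and filled points for an adjusted p under 0.05. The medians of the listed ligases are 0.13 with WM-2474 and 0.17 with DMSO, and those of the other classes lie between -0.037 and 0.012. Library totals shift the median of all genes to -0.14 with WM-2474 and -0.13 with DMSO and take Aars below 0. The classes were set with earlier results of these data known.

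The 2 remaining targets differed from each other. Vldlr (chr19:27216480-27254231), a lipoprotein receptor, had 109.7, 105 and 111 CPM at 240 h, against 91.3, 85.7 and 88.7 CPM at 96 h, with WM-2474. In DMSO cultures Vldlr had 119, 110.2 and 108 CPM at 240 h, against 90.0, 95.2 and 87.4 CPM at 96 h. All 240 h values were the higher ones, by 0.29 ± 0.054 with WM-2474 (adjusted p = 1.64e-04) and 0.30 ± 0.054 with DMSO (adjusted p = 9.02e-05). Stc2 (chr11:31359441-31370061), a secreted glycoprotein known as a target of endoplasmic reticulum stress, had 32.3, 29.7 and 28.9 CPM at 240 h, against 27.0, 36.7 and 31.8 CPM at 96 h, with WM-2474. With DMSO Stc2 had 23.1, 25.8 and 26.7 CPM at 240 h, against 32.2, 36.5 and 38.1 CPM at 96 h. Its libraries overlapped between times with WM-2474 and were lower at 240 h with DMSO, and the changes were -0.066 ± 0.096 with WM-2474 (adjusted p = 0.656) and -0.48 ± 0.096 with DMSO (adjusted p = 3.96e-04). The difference between these changes was 0.41 ± 0.14, with an unadjusted p of 0.00597 and an adjusted p of 0.977. Without DMSO 240 h replicates 1 and 2, the DMSO change of Stc2 was -0.41 (adjusted p = 0.0249).

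Other genes of the pathway were taken from lists by function, which were made with earlier results of these data known. Beside the counts below, 15.9% of all tested genes were called higher and 14.8% lower with WM-2474, and 17.5% and 17.3% with DMSO. Under library totals these shares were 8.13% and 32.5% with WM-2474, and 8.82% and 32.5% with DMSO. Of 14 genes of the eIF2 machinery, 6 were higher and 1 lower with WM-2474, and 5 higher and 0 lower with DMSO, a balance that library totals turned to 1 higher and 4 lower with WM-2474 and 1 higher and 5 lower with DMSO. Without DMSO 240 h replicates 1 and 2, DMSO gave 2 higher and 0 lower. Eif2s2, the beta subunit of eIF2, was higher by 0.29 ± 0.061 with WM-2474 (adjusted p = 5.90e-04) and 0.29 ± 0.061 with DMSO (adjusted p = 4.69e-04), and Eif2ak3, the kinase PERK of the endoplasmic reticulum, by 0.18 ± 0.059 with WM-2474 (adjusted p = 0.0194) and 0.16 ± 0.059 with DMSO (adjusted p = 0.0339). Eif2ak4, the kinase GCN2 that senses uncharged tRNA, was lower with WM-2474 by -0.24 ± 0.070 (adjusted p = 0.00928) and gave -0.12 ± 0.070 with DMSO (adjusted p = 0.175). Of 14 tested ATF4 partners and stress genes, 5 were higher and 0 lower with WM-2474, and 1 was higher and 1 lower with DMSO. Library totals gave 2 higher and 2 lower with WM-2474 and 1 higher and 3 lower with DMSO, and without DMSO 240 h replicates 1 and 2 there were 5 higher and 1 lower with WM-2474. Xpot, the exporter of tRNA from the nucleus, was higher by 0.32 ± 0.052 with WM-2474 (adjusted p = 2.43e-05) and 0.32 ± 0.052 with DMSO (adjusted p = 2.39e-05). Cebpb, a C/EBP partner, was lower with DMSO by -0.61 ± 0.11 (adjusted p = 0.00188) and gave -0.33 ± 0.11 with WM-2474 (adjusted p = 0.0523). Fgf21 and Slc7a8 did not pass the filter on low counts.

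Of 21 amino acid enzymes outside the list, 2 were higher and 6 lower with WM-2474 (15.9% and 14.8% of all tested genes). With DMSO 4 were higher and 7 lower (17.5% and 17.3%). Library totals left 0 higher and 8 lower with WM-2474 (8.13% and 32.5% of all tested genes) and 0 higher and 9 lower with DMSO (8.82% and 32.5%). Aldh1l2, the mitochondrial formyl-tetrahydrofolate dehydrogenase, was higher by 0.27 ± 0.055 with WM-2474 (adjusted p = 4.80e-04) and 0.24 ± 0.055 with DMSO (adjusted p = 0.00125). Its cytosolic relative Aldh1l1 had 11.2, 9.74 and 8.78 CPM at 240 h, against 20.7, 26.4 and 25.6 CPM at 96 h, with WM-2474. With DMSO Aldh1l1 had 12.03, 8.96 and 8.58 CPM at 240 h, against 21.6, 23.0 and 23.9 CPM at 96 h, so that the times were far apart. It was lower by -1.28 ± 0.12 with WM-2474 (adjusted p = 6.41e-09) and -1.27 ± 0.12 with DMSO (adjusted p = 7.00e-09), and Gcat, which turns a breakdown product of threonine into glycine, by -0.97 ± 0.11 with WM-2474 (adjusted p = 3.83e-07) and -1.15 ± 0.11 with DMSO (adjusted p = 2.53e-08). Of 14 tested transporters outside the list, 2 were higher and 4 lower with WM-2474, and 2 higher and 6 lower with DMSO. Library totals gave 1 higher and 6 lower with WM-2474 and 1 higher and 7 lower with DMSO. The shares of all tested genes beside these counts are those given above for the enzymes. Without DMSO 240 h replicates 1 and 2, DMSO gave 3 enzymes higher and 6 lower and 1 transporter higher and 3 lower, and WM-2474 gave 1 transporter higher and 2 lower. Slc7a3, an importer of arginine and lysine, was higher by 0.65 ± 0.10 with WM-2474 (adjusted p = 1.62e-05) and 0.40 ± 0.097 with DMSO (adjusted p = 0.00196). Slc38a4, a relative of Slc38a2, was lower by -0.75 ± 0.055 with WM-2474 (adjusted p = 5.44e-11) and -0.59 ± 0.055 with DMSO (adjusted p = 3.95e-09), and Slc38a1 by -0.26 ± 0.052 with WM-2474 (adjusted p = 2.67e-04) and -0.25 ± 0.051 with DMSO (adjusted p = 4.25e-04).

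Set by promoter, 12 genes with the core TGATGNAA had 9 calls higher and 0 lower with WM-2474 and likewise 9 and 0 with DMSO. Their medians were 0.25 with WM-2474 and 0.17 with DMSO. The 21 genes with a listed promoter and no core had 8 higher and 2 lower with WM-2474 and 9 higher and 4 lower with DMSO, with medians of 0.14 with WM-2474 and 0.13 with DMSO. Of all tested genes, 15.9% were called higher and 14.8% lower with WM-2474, and 17.5% and 17.3% with DMSO. Under library totals the genes with the core had 4 higher and 0 lower in each treatment. Those without it had 2 higher and 7 lower with WM-2474 and 3 higher and 8 lower with DMSO. On that scale all tested genes had 8.13% higher and 32.5% lower with WM-2474, and 8.82% and 32.5% with DMSO. With DMSO 240 h replicates 1 and 2 left out, DMSO gave 5 higher and 0 lower with the core and 5 higher and 2 lower without it. The difference between these sets was not tested. Of the genes with the core, Yars was called in neither treatment, Iars and Slc1a4 were not called with WM-2474, and Chac1 and Pycr1 were not called with DMSO. The genes whose promoters are printed were picked largely by their p with time, so that their calls say nothing about the core.

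The comparison of WM-2474 with DMSO asked what the inactive control compound itself did to these genes. At 240 h edgeR called 0 of the 39 genes, where 0.0296% of all tested genes were called, and the smallest adjusted p was 0.493. At an unadjusted p under 0.05 there were 7 genes in edgeR (8.14% of all tested genes), 5 in DESeq2 (5.16%) and 5 in limma-voom (8.56%). The fitted change lay below 0 for 29 of the 39 genes (49.4% of all tested genes), with a median of -0.046, beside 0.0017 over all tested genes, and the median was -0.016 without WM-2474 240 h replicate 1 and -0.070 without DMSO 240 h replicates 1 and 2. Without overlap between libraries, 6 genes were lower and 1 was higher with WM-2474 (6.7% and 7.59% of all tested genes). The 39 values rest on the same 6 libraries. In WM-2474 240 h replicates 1, 2 and 3, values lay below their group mean in 27, 19 and 9 of 39 genes. The same counts were 22, 24 and 9 in DMSO 240 h replicates 1, 2 and 3. Psph had 40.1, 46.5 and 46.3 CPM with WM-2474 and 49.5, 51.3 and 51.7 CPM with DMSO at 240 h, where the lowest DMSO library was above every WM-2474 library. The log2 fold change of Psph was -0.20 ± 0.071 (95% interval -0.34 to -0.053, adjusted p = 0.493). Cebpg at 240 h had 54.2, 55.9 and 56.2 CPM with WM-2474 and 61.7, 60.1 and 64.0 CPM with DMSO, again without overlap, a log2 fold change of -0.17 ± 0.065 (95% interval -0.30 to -0.033, adjusted p = 0.521). Stc2 went the other way, with 32.3, 29.7 and 28.9 CPM with WM-2474 and 23.1, 25.8 and 26.7 CPM with DMSO, a log2 fold change of 0.25 ± 0.10 (95% interval 0.039 to 0.45, adjusted p = 0.538). Without DMSO 240 h replicates 1 and 2, 0 genes were called and 3 had an unadjusted p under 0.05 (4.2% of all tested genes). With the replicate number as a block in a fit of the 240 h libraries, 0 were called (0.712% of all tested genes) and 8 had an unadjusted p under 0.05 (11.3% of all tested genes).

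At 96 h edgeR also called 0 of the 39 genes with WM-2474 against DMSO, as it called 0.0% of all tested genes. An unadjusted p under 0.05 was found for 2 genes in edgeR (2.1% of all tested genes), 1 in DESeq2 (0.807%) and 5 in limma-voom (2.96%), and the smallest adjusted p was 1.00. The fitted change lay below 0 for 35 of the 39 genes (49.9% of all tested genes), with a median of -0.036, which was -0.058 without WM-2474 96 h replicate 2. Without overlap between libraries, 7 genes were lower and 0 higher (3.84% and 3.62% of all tested genes). The 39 genes together held 0.686, 0.684 and 0.669% of counts in the WM-2474 libraries and 0.704, 0.701 and 0.688% in the DMSO libraries, so that these shares did not overlap. At 240 h the shares were 0.667, 0.676 and 0.689% with WM-2474 and 0.700, 0.687 and 0.708% with DMSO, which overlapped.

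Gpt2 at 96 h had 49.2, 50.5 and 47.8 CPM with WM-2474 and 55.4, 52.1 and 55.1 CPM with DMSO, without overlap, a log2 fold change of -0.14 ± 0.058 (95% interval -0.26 to -0.021, adjusted p = 1.00). Atf4 had 244, 249.7 and 237 CPM with WM-2474 and 259, 258 and 261 CPM with DMSO, the WM-2474 libraries being the lower ones, by -0.090 ± 0.041 (95% interval -0.17 to -0.0046, adjusted p = 1.00). Asns had 157, 150.4 and 148 CPM with WM-2474 and 165, 165 and 158 CPM with DMSO, also without overlap, at -0.097 ± 0.048 (95% interval -0.20 to 0.0021, adjusted p = 1.00). Same-numbered libraries of both treatments deviated together at 96 h, and a fit of these 6 libraries with the replicate number as a block gave 10 genes with an unadjusted p under 0.05 (6.32% of all tested genes) and 0 called (0.0224%), with a smallest adjusted p of 0.638.

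Averaged over both times, 0 of the 39 genes were called by edgeR with WM-2474 against DMSO (0.0148% of all tested genes), and 7 had an unadjusted p under 0.05 (5.65% of all tested genes), with 5 in DESeq2 (3.45%) and 8 in limma-voom (5.77%). The fitted change lay below 0 for 31 genes (49.0% of all tested genes), with a median of -0.044. The smallest p belonged to Psph at -0.16 ± 0.049 (adjusted p = 0.745), Psat1 at -0.095 ± 0.034 (adjusted p = 0.767) and Atf4 at -0.078 ± 0.030 (adjusted p = 0.790). Psat1 had 259, 274 and 301 CPM with WM-2474 and 307, 292 and 301 CPM with DMSO at 240 h, and 331, 321 and 318 CPM with WM-2474 and 343, 347 and 334 CPM with DMSO at 96 h, apart at 96 h and overlapping at 240 h. The difference between the effects at 240 h and at 96 h, which is also the difference between the time changes of both treatments, was called for 0 of the 39 genes and 0.0% of all tested genes in edgeR. Its fitted value lay below 0 for 17 of the 39 genes (49.3% of all tested genes), with a median of 0.0050. Stc2 alone had an unadjusted p under 0.05 there (4.63% of all tested genes), with 1 gene also in DESeq2 (2.2%) and 1 in limma-voom (5.97%). An absent call does not show that the treatments act alike, and the median standard error of the 39 genes was 0.052 at 240 h and 0.050 at 96 h.

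**Figure D5:**
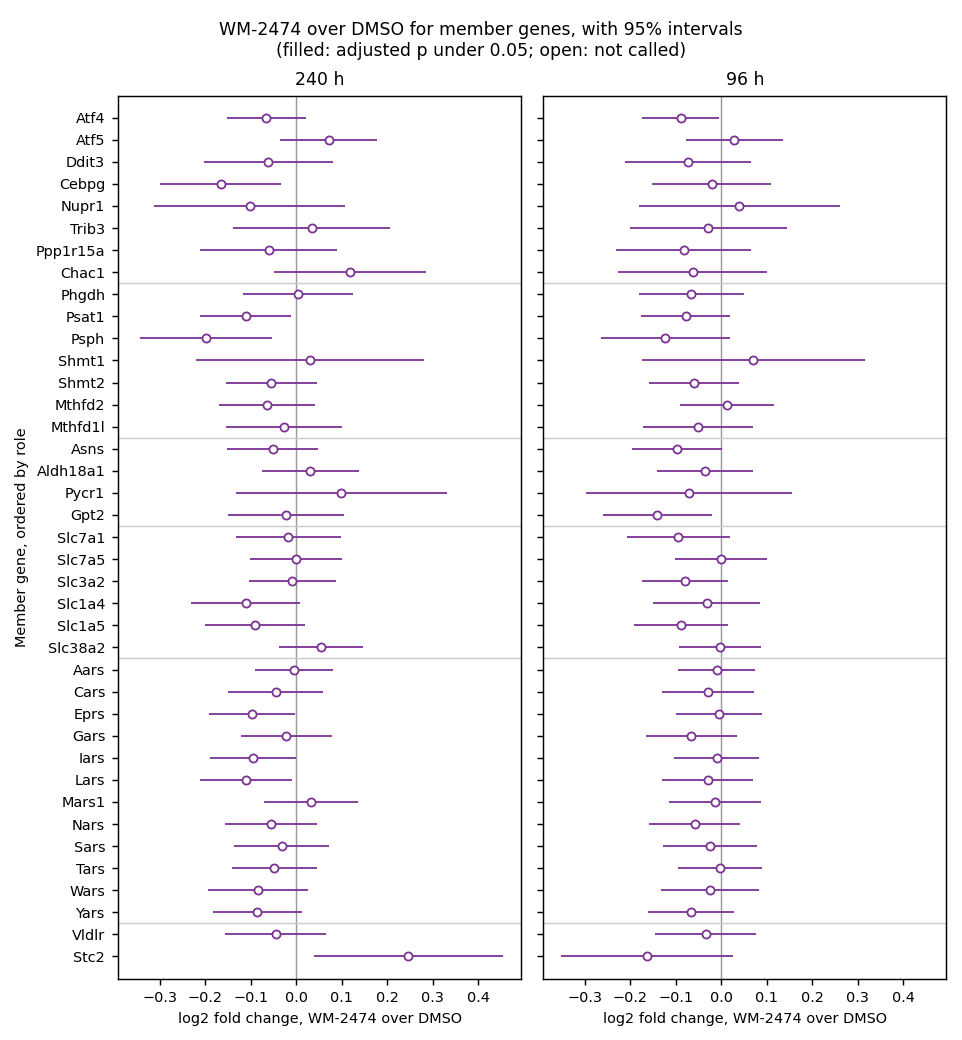
Log2 fold change of WM-2474 over DMSO for each of the 39 genes, ordered by role, at 240 h and at 96 h, with 95% intervals as bars and filled points for an adjusted p under 0.05. Every point is open, 29 of 39 lie below 0 at 240 h and 35 of 39 at 96 h, and Stc2 at 240 h is the highest point at 0.25.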

How the data were processed

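RNA of 12 cultures was extracted with RNeasy and made into uniquely indexed TruSeq Stranded mRNA libraries, per the labels' protocols. The authors deposited unnormalized whole-number counts for each gene, beside its exon length in base pairs. Counting used featureCounts on mm10, per the submitters' processing notes; the aligner, versions, annotation and strand and multi-mapping settings are not given in the sources used here. Column names gave treatment, time and replicate, which tied each column to a single sample, and replicates were not pooled. Of 27179 entries, 874 without an identifier were left out (0.547 to 0.648% of a library's counts). Symbols came from the GRCm38.p6 annotation for 25275 of 26305 genes, and positions refer to that build. Counts of replicate pairs differed beyond sampling noise (chi-square over degrees of freedom 2.02 to 4.99), so that each library counted as 1 sample.

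Genes were filtered with filterByExpr by group, scaled with TMM factors and fitted over all 12 libraries with 1 coefficient per group in edgeR 4.0.16 (robust quasi-likelihood, common biological variation of 5.22%). Two-sided p-values of its F test were adjusted by Benjamini-Hochberg over 13499 genes in each of 6 contrasts, with a threshold of 0.05. The standard error is the log2 fold change divided by the square root of F. CPM and RPKM use TMM-scaled library sizes. An exact permutation of 3 against 3 libraries allows no p below 0.1, so that calls rest on the model fitted across genes. Intervals are at 95%, and floors of 3 counts cover counting error only. The text names all 39 genes. Values per library are printed for Atf4, Ddit3, Trib3, Chac1 and Asns, for the 2 genes of each role with the smallest p in a time comparison and the 3 with the smallest p in a treatment comparison. Of the 93 others on pathway lists, only some of the called genes with the smallest p in a direction are named, and Oat, Mars2 and Sars2 are among those left out. Positions are given for most of the 39 genes with values per library. The members and lists were chosen with earlier results of these data known.

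Tests were repeated with RLE factors, with library totals, without a filter or with 1 of over 1 CPM in 3 libraries, in DESeq2 1.42.0, in limma-voom 3.58.1 with quality weights, with a block for the replicate number, and by fits of the compared libraries alone, without each library in turn, and without DMSO 240 h replicates 1 and 2. Deviations of same-numbered libraries correlated at 0.301, 0.235 and 0.191 between treatments at 96 h, which pairs them, at 0.0971, 0.114 and 0.0397 at 240 h, and at -0.0078 to 0.132 across times, which does not. R 4.3.3, Python 3.11.15, pandas 2.3.3 and matplotlib 3.10.9 were used.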

Additional observations from a re-analysis of the deposited data

How the results depend on the processing

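Library totals gave 7 genes higher and 9 lower with time in WM-2474 cultures (median 0.016), and 8 higher and 9 lower in DMSO cultures (median 0.039), on a scale where the median of all genes fell with time. Leaving out DMSO 240 h replicates 1 and 2 together gave 13 higher and 3 lower in DMSO cultures; with fewer samples, the remaining library is assumed to vary like the others. Leaving out single libraries gave 14 to 20 higher and 3 to 4 lower with WM-2474 (median 0.13 to 0.17), and 14 to 22 higher and 4 to 5 lower with DMSO (median 0.14 to 0.18). The median of the difference between the WM-2474 effects, 0.0050, changed sign under library totals (-0.0071) and without DMSO 240 h replicates 1 and 2 (-0.022), and ranged from -0.012 to 0.037 when single libraries were left out; the cause was not tested. Aars, called higher with time, lay below 0 under library totals, at -0.016 with WM-2474 and -0.0093 with DMSO. Of 384 counts and medians recomputed, 368 stayed within 1.5 times the main count, or within the spread of the main median without a change of sign. This tally includes the treatment counts of 0 that stayed at 0, which have no direction. For the treatment medians the spread, 0.067 at 240 h and 0.072 at 96 h, was wider than the medians themselves, -0.046 and -0.036. The tally therefore says little about the treatment results. Under library totals every count and median of the time comparisons moved beyond these limits. The replicate block over all libraries gave 20 higher and 3 lower with WM-2474 (16.5% and 15.5% of all tested genes) and 22 higher and 5 lower with DMSO (18.2% and 18.1%), and over the compared libraries alone 15 and 3 with WM-2474 (13.9% and 13.5%) and 22 and 5 with DMSO (18.8% and 18.8%). With the block over the compared libraries alone, 0 of the 39 genes were called between treatments, where 91 of all tested genes were called at 240 h and 3 at 96 h. DESeq2 gave 17 higher and 3 lower with WM-2474 (13.8% and 11.8%) and 19 and 5 with DMSO (15.0% and 13.7%), and limma-voom 20 and 3 with WM-2474 (16.9% and 15.2%) and 23 and 5 with DMSO (19.5% and 19.2%). At 240 h DESeq2 gave an adjusted p for 29 of the 39 genes. The counts of 0 of the 39 genes between treatments held under every alternative run, with medians of -0.058 to -0.016 at 240 h, -0.058 to -0.031 at 96 h and -0.055 to -0.034 averaged over both times when single libraries were left out. Depth sets limits for Shmt1 and Pycr1, the lowest genes, whose standard errors reached 0.12.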
